A study of Mus musculus with 2 samples.

Results

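The genes described here are Bin1, Picalm, Cd2ap, Rin3, Sorl1, Ptk2b, Abi3, Ms4a6b, Ms4a6c and Ms4a6d, mouse counterparts of genes near human Alzheimer's disease (AD) risk loci that microglia transcribe. They were taken by name, as 10 of the 32285 genes in a count table of sorted brain microglia. All 10 were detected in at least 1% of the cells of a library.

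Most of these genes act where a microglial cell takes up material, sorts it or senses its surroundings. Bin1, Picalm and Rin3 encode proteins that bend membranes, load clathrin coats or switch on small GTPases of early endosomes. Cd2ap encodes an adaptor between membrane receptors and actin, and Sorl1 a sorting receptor that returns amyloid precursor protein from endosomes to the Golgi. Ptk2b encodes Pyk2, a kinase activated by integrins and calcium, Abi3 belongs to a complex that drives actin branching, and the Ms4a6 genes encode small membrane-spanning proteins of myeloid cells that lie in a cluster whose human counterpart has been linked to soluble TREM2.

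Microglia came from PSAPP mice with the APPswe/PS1δE9 genotype, which express mutant human amyloid precursor protein and presenilin and deposit plaques. Animals of both sexes were given lemborexant (LEM, 30 mg/kg/day), an antagonist of both orexin receptors, or vehicle (VEH) by oral gavage from 9 to 10 months of age. All mice carried the transgenes, and no mouse without them is compared here. The sort took live CD45lo CD11b+ cells of the cortex and hippocampus. Cells of 5 mice were pooled as 1 library per treatment, so no test across animals can be made. Intervals below are exact 95% intervals that cover counting error only, and a member is counted as past the fold where its log2 ratio is at least 0.5 in size.

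The VEH library held 18374 cells and 116229678 counts (median 5971 per cell), and the LEM library held 24392 cells and 160752298 counts (median 6034). Cell names carry a running number and no barcode, so barcodes shared by the libraries could not be counted. Xist or Y-linked counts gave a sex call to 5686 female and 9025 male cells in VEH and to 8409 and 11223 in LEM. How many mice of each sex stand behind these cells is not given in the sources used here. Counts of both kinds were present in 5.34% of VEH and 7.23% of LEM cells.

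The 10 genes spanned a wide range of levels, given in CPM, counts scaled to the total of the library. Bin1 was the most abundant, at 787 CPM in VEH and 767 CPM in LEM, followed by Abi3 at 575 and 558 CPM and Picalm at 495 and 462 CPM. Cd2ap, Ptk2b, Rin3 and Ms4a6d lay between 87.1 and 141 CPM in both libraries. Ms4a6b stood at 49.7 CPM in VEH and 41.2 CPM in LEM, Ms4a6c at 19 and 15.8 CPM, and Sorl1 at 11.5 and 8.73 CPM. A 5′ library counts molecules, so these levels need no correction for gene length, although genes may differ in how well they are captured. Bin1 was detected in 94.2% of VEH cells and Sorl1 in 6.48%.

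On GRCm38, Bin1 (ENSMUSG00000024381.16) lies on chromosome 18 from 32377230 to 32435737, Picalm (ENSMUSG00000039361.11) on chromosome 7 from 90130213 to 90213465 and Rin3 (ENSMUSG00000044456.16) on chromosome 12 from 102283048 to 102390855, all on the plus strand. On the minus strand, Cd2ap (ENSMUSG00000061665.7) lies on chromosome 17 from 42792951 to 42876665, Sorl1 (ENSMUSG00000049313.8) on chromosome 9 from 41964720 to 42124297, Ptk2b (ENSMUSG00000059456.13) on chromosome 14 from 66153257 to 66281052 and Abi3 (ENSMUSG00000018381.15) on chromosome 11 from 95830074 to 95842476. Abi3 overlaps Gngt2, Phospho1 and Zfp652 on the other strand, and 4 experimentally untested transcripts lie within Picalm on its own strand. Bin1, Sorl1, Ms4a6b and Ms4a6c each overlap a gene on the other strand that is not annotated as protein-coding. Whether strand was used in counting is not given in the sources used here, so reads of such overlaps may be shared.

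With LEM, 0 of 10 members passed the fold in either direction, where 1.62% of 11910 tested genes were higher and 1.24% were lower. The median log2 ratio of the members was -0.09, beside 0.01 for all genes tested. The log2 ratio was below 0 for 9 members and above 0 for Ptk2b. Every one of these 10 intervals lay apart from 0, but with 1 library of each treatment the spread between mice is unknown.

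Genes of endocytosis differed little between the libraries apart from Sorl1. For Bin1, an amphiphysin that tubulates membranes, the log2 ratio of LEM over VEH was -0.04 (-0.05 to -0.03). By sex it was 0.02 in female cells, with an interval that reached 0, and -0.08 in male cells. Picalm, the clathrin assembly protein, was at -0.10 (-0.11 to -0.08), and the ratio was -0.17 in female cells, from 482 to 428 CPM, and -0.02 in male cells, from 502 to 496 CPM. The LEM female cells were thus the lowest of the 4 library-by-sex pools. Cd2ap, an adaptor between membrane receptors and actin, was at -0.09, with -0.07 in female and -0.10 in male cells. Rin3, an exchange factor for Rab5, was at -0.05, with -0.12 in female and 0.05 in male cells.

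Sorl1 had the lowest ratio of the 10, at -0.40 (-0.51 to -0.29). Its levels were 15.2 CPM in VEH female cells (554 counts), 9.33 CPM in VEH male cells (545 counts), 13.8 CPM in LEM female cells (762 counts) and 4.99 CPM in LEM male cells (368 counts). Male cells were below female cells in both libraries, and the LEM male cells stood apart from the other pools. The log2 ratio of LEM over VEH was -0.90 (-1.10 to -0.71) in male cells and -0.14 (-0.30 to 0.02) in female cells, and these intervals did not overlap. The difference between the sexes was not tested, since mice are not told apart within a library.

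**Figure D1:**
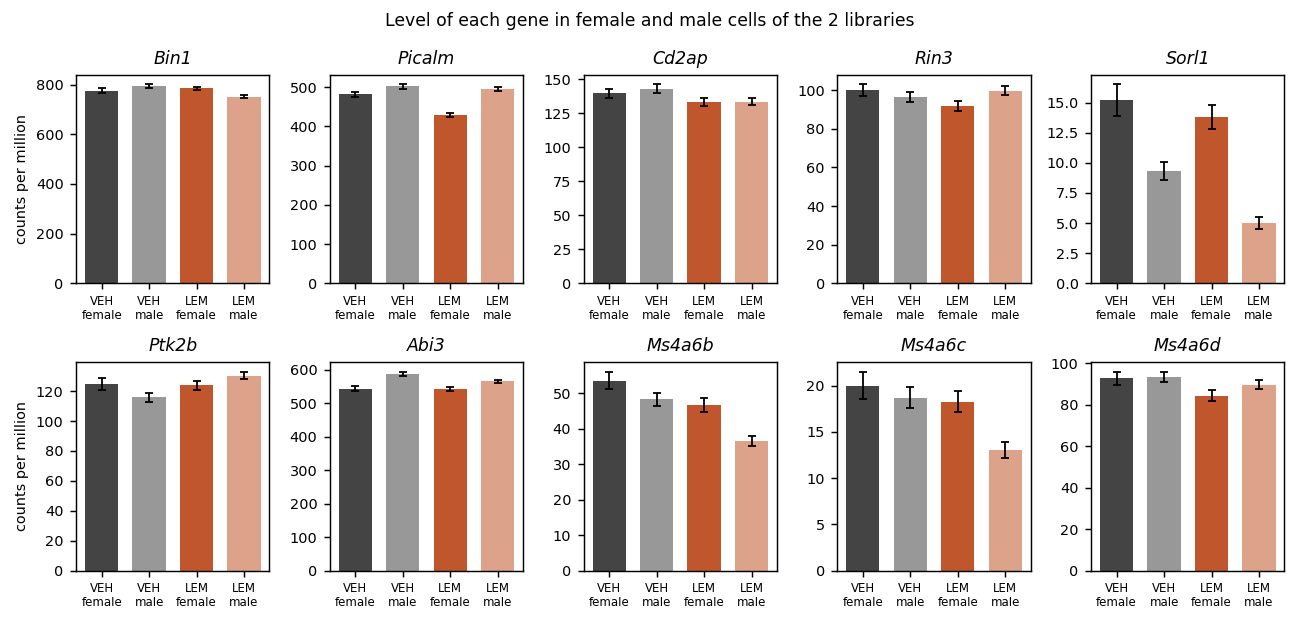
Level of each gene in CPM (y axis, from 0) in female and male cells of the VEH and LEM libraries (x axis). Bars are the pooled level of 1 library-by-sex pool and lines are 95% counting intervals. Sorl1 ranges from 15.2 CPM in VEH female cells to 4.99 CPM in LEM male cells, and Bin1 lies between 752 and 794 CPM in the 4 pools.

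Across all genes, 0.706% of 11906 were higher in female than male cells past the fold in both libraries, and 0.42% were lower. Among the members this held for Sorl1, with a log2 ratio of female over male of 0.70 (0.53 to 0.87) in VEH and 1.47 (1.29 to 1.65) in LEM. No member was lower past the fold in both. Ms4a6b was at 0.15 in VEH and 0.36 in LEM, and Ms4a6c at 0.10 and 0.48, while the other members lay between -0.21 and 0.11. Picalm was lower in female cells in both libraries, at -0.06 and -0.21.

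The kinase and the actin regulator differed little between the libraries. Ptk2b had 120 CPM in VEH and 127 CPM in LEM, a log2 ratio of 0.09 (0.05 to 0.12), which was 0.17 in male and -0.01 in female cells. Abi3 was at -0.04 (-0.06 to -0.03), with 544 and 543 CPM in female and 588 and 565 CPM in male cells of VEH and LEM. Its ratio was -0.06 in male cells and also -0.06 in cells without a single sex call.

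The 3 Ms4a6 genes were all lower in the LEM library, while their neighbour Ms4a4c was higher past the fold, at 2.36 CPM in VEH and 3.4 CPM in LEM, a log2 ratio of 0.53 (0.31 to 0.74). Ms4a6b had a log2 ratio of -0.27 (-0.32 to -0.22), or -0.20 in female and -0.41 in male cells. Ms4a6c was also at -0.27 (-0.35 to -0.18), with -0.14 in female cells, whose interval reached 0.00, and -0.52 in male cells. For Ms4a6d the ratio was -0.09 over all cells, with -0.14 for female and -0.06 for male ones. Among male cells alone, 2 members were lower past the fold, Sorl1 and Ms4a6c, beside 2.22% of 11944 genes, and none was higher, beside 3.01%. In female cells 0 members were past it, beside 3.06% of 11954 genes higher and 2.69% lower.

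**Figure D2:**
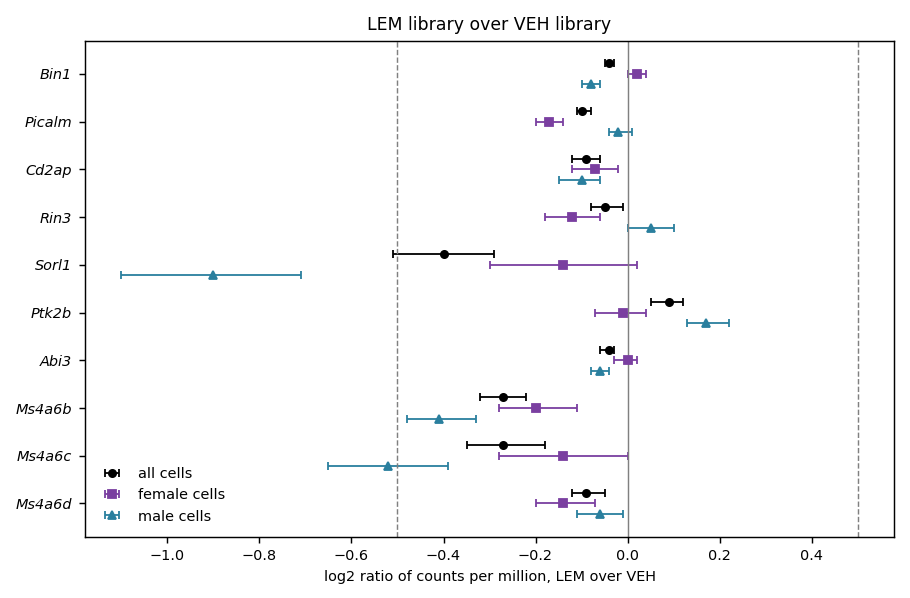
Log2 ratio of LEM over VEH (x axis) for each gene (y axis), for all, female and male cells of the libraries. Points are ratios of pooled CPM, lines are 95% counting intervals, and dashed lines mark 0.5 and -0.5. Sorl1 (-0.90) and Ms4a6c (-0.52) in male cells lie past the dashed line, and no ratio over all cells does.

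To describe the genes by cell state, cells were gated on raw marker counts. Homeostatic-gated cells held P2ry12 and Tmem119 and at most 1 of 6 markers of disease-associated microglia (DAM: Cst7, Itgax, Lpl, Spp1, Gpnmb, Igf1), and numbered 14430 in VEH and 18477 in LEM. DAM-gated cells held at least 4 of the 6 markers (118 and 205 cells), and intermediate-gated cells 2 or 3 (360 and 501). Cells with at least 30 Apoe counts formed the Apoe-high gate (1120 and 2580), and cells with at least 5 counts of H2-Aa, H2-Ab1 and H2-Eb1 the MHCII gate (317 and 281). Interferon-gated cells held at least 3 of 7 interferon-stimulated genes (242 and 429), and mitotic-gated cells at least 4 of 8 cell cycle genes (130 and 190). None of the 10 members was a gate marker, but deep cells enter marker gates more easily. Median counts were 5983.5 and 5874 in homeostatic-gated, and 12086 and 12526 in DAM-gated cells. Cells with both Xist and Y-linked counts made up 5.18% and 6.48% of homeostatic-gated cells. They made up 10.2% and 14.1% of DAM-gated, 10.3% and 14.2% of interferon-gated and 10.4% and 12.5% of MHCII-gated cells. The share was 4.62% in VEH and 8.95% in LEM mitotic-gated cells. The part of depth and of doublets in these shares was not tested.

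Each gate was set against homeostatic-gated cells of the same library, and a call needed the fold in both libraries. Of the 60 pairs of a member and a state, 14 were lower and 3 were higher. Over all tested genes, 10.3% of 75206 such pairs were lower and 9.25% were higher. These gates also moved genes in general, with a median over all tested genes, of each gene's mean log2 ratio in both libraries, of -0.32 in DAM-gated, -0.29 in MHCII-gated, -0.11 in interferon-gated and Apoe-high-gated, -0.08 in intermediate-gated and 0.08 in mitotic-gated cells. The members' medians were -0.73, -0.46, -0.04 (interferon), -0.18 (Apoe-high), -0.35 and -0.36 in the same states. Relative to the median of all tested genes in each library, 6 of the 60 pairs were lower and 4 were higher, beside 6.05% and 11% of all such pairs.

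DAM-gated cells held less of 6 members, Bin1, Picalm, Rin3, Abi3, Ms4a6b and Ms4a6d, in a state where 22.4% of 12554 genes were lower and 9.47% were higher. No member was higher. Bin1 was at 473 CPM in VEH and 453 CPM in LEM DAM-gated cells against 821 and 808 CPM in homeostatic-gated cells, log2 ratios of -0.79 and -0.83. Picalm was at 306 and 324 CPM against 508 and 481 CPM. Rin3 stood at 63.4 and 51.0 CPM against 102 and 99.7 CPM, and Abi3 at 412 and 409 CPM against 594 and 580 CPM. Both libraries thus gave levels of these 4 genes in DAM-gated cells that were below each homeostatic level, and so did each of the 4 library-by-sex pools.

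Abi3 lay at the threshold, with -0.53 in VEH and -0.50 in LEM. The members were also read relative to 2 medians of genes in the same library, that of genes with at least 50 counts on both sides and that of all tested genes. The first median was -0.18 in VEH and -0.23 in LEM DAM-gated cells, and relative to it Bin1 was at -0.61 and -0.60, Rin3 at -0.51 and -0.74, Ms4a6b at -2.16 and -1.82 and Ms4a6d at -1.28 and -0.89. Picalm (-0.55 and -0.34) and Abi3 (-0.35 and -0.27) were then within the fold in at least 1 library. The median of all tested genes was -0.31 and -0.30, and relative to it 2 of the 6 members were past the fold in both libraries, Ms4a6b at -2.03 and -1.75 and Ms4a6d at -1.15 and -0.82. Bin1, at -0.48 and -0.53, and Rin3, at -0.38 and -0.67, were then within it in VEH. Among cells of at least 8000 counts, Bin1 had ratios of -0.75 and -0.83 and Rin3 of -0.61 and -0.90, whereas Abi3 had -0.44 and -0.45. Without cells holding an MHC class II count, which left 59 and 95 DAM-gated cells, Bin1 was at -0.72 and -0.85, and Rin3, at -0.41 and -0.80, was within the fold in VEH. Scaled to total counts, Cd2ap was within the fold, at -0.42 and -0.40, and Ptk2b was at -0.12 and -0.09. With 1 more marker per gate, Cd2ap reached a mean of -0.56 over both libraries, which is not a call by the rule above. That DAM gate held 36 VEH and 60 LEM cells, and VEH was then below the minimum of 50 cells for a state.

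**Figure D3:**
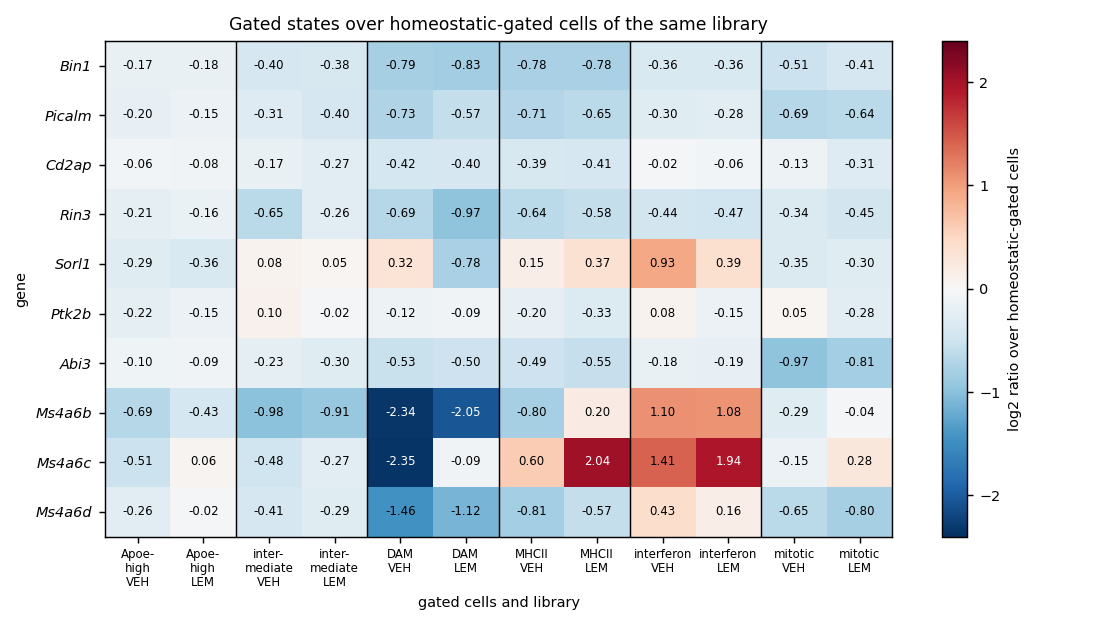
Log2 ratio of each gene (rows) in 6 gated states over homeostatic-gated cells of the same library (columns, by state and library), written in each field and shown by colour. Bin1, Picalm, Cd2ap, Rin3 and Abi3 are below 0 in every field, and the highest fields are Ms4a6c in MHCII-gated cells of LEM (2.04) and in interferon-gated cells of LEM (1.94).

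In MHCII-gated cells, 4 members were lower (Bin1, Picalm, Rin3 and Ms4a6d) beside 18.2% of 12688 genes, and 1 was higher (Ms4a6c) beside 8.87%. Bin1 was at 479 and 470 CPM, a ratio of -0.78 in both libraries. Picalm had ratios of -0.71 and -0.65 and Rin3 of -0.64 and -0.58. The median of genes with at least 50 counts on both sides was -0.25 in each library, and relative to it Bin1 was at -0.53 in both, Picalm at -0.46 and -0.40, Rin3 at -0.39 and -0.33 and Ms4a6d at -0.56 and -0.32. Relative to the median of all tested genes, -0.27 in VEH and -0.29 in LEM, 0 members were lower past the fold in both libraries, with Bin1 at -0.51 and -0.49.

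Mitotic-gated cells held less of 3 members, Picalm, Abi3 and Ms4a6d, beside 12.1% of 13147 genes, and more of none, beside 23.6%. Abi3 had its lowest level of the states here, 303 CPM in VEH and 330 CPM in LEM, with ratios of -0.97 and -0.81. Picalm was at 315 and 308 CPM, ratios of -0.69 and -0.64. Bin1 was at 575 and 608 CPM, ratios of -0.51 and -0.41. Relative to the median of genes with at least 50 counts on both sides, which was 0.15 in VEH and 0.10 in LEM, Bin1 was at -0.66 and -0.51, Picalm at -0.84 and -0.74 and Abi3 at -1.12 and -0.91. Relative to that of all tested genes, 0.10 and 0.08, Picalm, Abi3 and Ms4a6d were past the fold, with Bin1 at -0.61 and -0.49.

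Intermediate-gated cells held less of 1 member, Ms4a6b, beside 3.81% of 12302 genes, and more of none, beside 5.48%. In Apoe-high-gated cells, of which 16.0% of those with a sex call were female, 0 of 10 members passed the fold, beside 1.29% of 12182 genes higher and 0.87% lower. Bin1 followed the order homeostatic, Apoe-high, interferon, intermediate, mitotic, MHCII and DAM from high to low in both libraries. Its neighbours interferon and intermediate, intermediate and mitotic, and MHCII and DAM had overlapping intervals.

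Picalm had this order of Bin1 in VEH but not in LEM. The other members, among them Sorl1 and Ptk2b, had it in neither library. Ptk2b ranged from 103 to 128 CPM over the 7 gates in VEH and from 103 to 129 CPM in LEM, and every pair of neighbours in its order overlapped. Against homeostatic-gated cells it was lower, within the fold, in Apoe-high-gated cells, at -0.22 (-0.31 to -0.12) in VEH and -0.15 (-0.21 to -0.09) in LEM. In MHCII-gated cells it was at -0.20 (-0.36 to -0.05) and -0.33 (-0.49 to -0.17). No gate had a Ptk2b ratio above 0 whose interval lay apart from 0. Of the 7 gates, Sorl1 was highest in interferon-gated cells, at 21.5 CPM in VEH (42 counts) and 11.6 CPM in LEM (43 counts). Its ratios there were 0.93 (0.45 to 1.38) and 0.39 (-0.08 to 0.83). It was higher there than in homeostatic-gated cells in 4 of 4 pools, by 0.11 to 1.00. Every pair of neighbours in its order overlapped too, and among cells of at least 8000 counts the interferon ratios were 0.74 and 0.09. Relative to the median of all tested genes they were 1.02 and 0.51, past the fold in both libraries. In DAM-gated cells it rested on 19 and 13 counts, and its ratios differed in sign, at 0.32 and -0.78.

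The Ms4a6 genes varied most between states. All lie on chromosome 19 of GRCm38, the build named mm10, within 135 kb that hold 5 protein-coding genes. Ms4a6c (ENSMUSG00000079419.4) spans 11469366 to 11482192 and Ms4a6b (ENSMUSG00000024677.13) 11516512 to 11531256, both on the plus strand, and Ms4a6d (ENSMUSG00000024679.10) spans 11586604 to 11604849 on the minus strand. Of the stretches of 50 bases in the coding transcripts of Ms4a6b, 4.14% also occur in those of Ms4a6c and 1.52% in those of Ms4a6d. A read that lies wholly within shared sequence cannot be assigned to 1 of the 3 genes. Read length was not compared with these stretches.

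RefSeq windows of 250 bases before to 50 after a start were found for 6 of the 10 members. Those of Ms4a6b and Ms4a6c, the members past the fold in interferon-gated cells of both libraries when scaled to total counts, resemble each other. Of 175 aligned pairs of bases before the start, 85.1% were identical, with a longest identical stretch of 48. Both are shown from GRCm38.p6, plus strand, up to the next exon that GENCODE annotates. For Ms4a6b this lies inside the GENCODE gene, in an intron of a transcript that starts further upstream, and for Ms4a6c it lies before the gene. The positions are chr19:11518309-11518452 for Ms4a6b and chr19:11469118-11469365 for Ms4a6c. Capitals mark GAAANNGAA, the core of elements bound by interferon regulatory factors, and GGAAGT, a core bound by ETS factors such as PU.1.
Ms4a6b: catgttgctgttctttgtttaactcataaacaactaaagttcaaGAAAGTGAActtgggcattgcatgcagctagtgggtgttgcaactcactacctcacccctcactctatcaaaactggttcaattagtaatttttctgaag
Ms4a6c: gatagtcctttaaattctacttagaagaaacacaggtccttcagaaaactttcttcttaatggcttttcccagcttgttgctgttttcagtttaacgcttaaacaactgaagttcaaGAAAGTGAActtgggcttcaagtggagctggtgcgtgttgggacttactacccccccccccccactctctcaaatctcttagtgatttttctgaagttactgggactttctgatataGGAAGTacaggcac

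The 2 windows hold the same GAAANNGAA match, GAAAGTGAA. It begins 206 bases before the RefSeq start of Ms4a6b and 133 bases before that of Ms4a6c. On either strand, GAAANNGAA occurs in 8.56% of 32851 RefSeq windows of mouse genes and GGAAGT in 23.8%, so neither is rare. The longer form of the interferon motif, with an A added at its end, occurs in 3.44% of windows and in 0 of the members' windows. Over the whole windows, Ms4a6b and Ms4a6c each held 2 GGAAGT matches, of which those in annotated exons are not shown. Of the other members with a window, Picalm held GAAANNGAA, and Sorl1 held GGAAGT in 1 of its 2 windows. These motifs were picked after the levels were known, and a match does not show binding.

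Interferon-gated cells held more of 2 members, Ms4a6b and Ms4a6c, beside 5.75% of 12333 genes, and less of none, beside 3.62%. Ms4a6b was at 112 CPM in VEH and 90.0 CPM in LEM against 52.4 and 42.7 CPM in homeostatic-gated cells, ratios of 1.10 and 1.08. Ms4a6c was at 50.1 and 49.8 CPM against 18.8 and 13 CPM, ratios of 1.41 and 1.94. Both were higher in 4 of 4 library-by-sex pools, Ms4a6b by 0.56 to 1.42 and Ms4a6c by 1.22 to 2.18. Among cells of at least 8000 counts, the ratios were 0.75 and 0.82 for Ms4a6b and 0.80 and 1.91 for Ms4a6c. Ms4a6d had ratios of 0.43 and 0.16, within the fold. A neighbour in the locus, Ms4a4c, was at 34.8 and 39.6 CPM there against 1.34 and 2.16 CPM.

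Thinned to 2000 counts per cell, Ms4a6b was detected in 20.7% of VEH and 16.6% of LEM interferon-gated cells, against 9.72% and 8.13% of homeostatic-gated cells. Ms4a6c was detected in 10.3% and 10.7% against 3.63% and 2.61%. The thinned shares thus kept the order of the levels. Markers of border-associated macrophages (BAM: Mrc1, Pf4, Cd163, F13a1, Lyve1, Cbr2) summed to 14.3 and 6.46 CPM in interferon-gated cells and to 2.64 and 1.88 CPM in homeostatic-gated cells. Monocyte markers (Ly6c2, Ccr2, Plac8, Vim) summed to 45.0 and 47.9 CPM against 9.65 and 10.6 CPM, with Ly6c2 at 0. Without cells holding a count of a BAM marker or of Ms4a7, the ratios were 1.12 and 1.04 for Ms4a6b and 1.15 and 1.94 for Ms4a6c. The part of the monocyte markers in these ratios was not tested.

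Ms4a6c in MHCII-gated cells was another matter. It was at 28.6 CPM in VEH and 53.5 CPM in LEM, ratios of 0.60 and 2.04, in a gate where the BAM markers summed to 23.2 and 51.0 CPM and 4 and 5 of the 6 markers had a count. Cells with a count of a BAM marker or of Ms4a7 made up 10.7% of VEH and 16.0% of LEM MHCII-gated cells, against 1.51% and 1.13% of homeostatic-gated cells. Without them, Ms4a6c was at 11.6 and 15 CPM, and its ratios were -0.69 (-1.21 to -0.21) and 0.21 (-0.27 to 0.66). The call was lost, and in VEH the direction turned. It was also lost among cells of at least 8000 counts, with ratios of -0.08 (-0.51 to 0.33) and 1.46 (1.11 to 1.80). Ms4a6b, at -0.80 and 0.20 in all MHCII-gated cells, was at -1.61 and -0.73 without them. Ms4a6d changed little, from -0.81 and -0.57 to -0.88 and -0.81. Ms4a7 is a gene of the same locus, at 23.5 CPM in VEH and 32.5 CPM in LEM MHCII-gated cells. Leaving out cells by its counts may itself lower Ms4a6c, and its part in the change was not tested.

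The BAM gate itself, cells with at least 3 of the 6 markers, held 14 VEH and 49 LEM cells, too few for the state comparison. Its levels are given as a description. Ms4a6c was at 404 CPM in VEH and 454 CPM in LEM, Ms4a6b at 300 and 265 CPM, and Ms4a6d at 150 and 199 CPM. These were above every microglial gate of the same library, but Ms4a6d in VEH rested on 20 counts, and its interval of 91.5 to 231 CPM held the 131 CPM of interferon-gated cells.

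**Figure D4:**
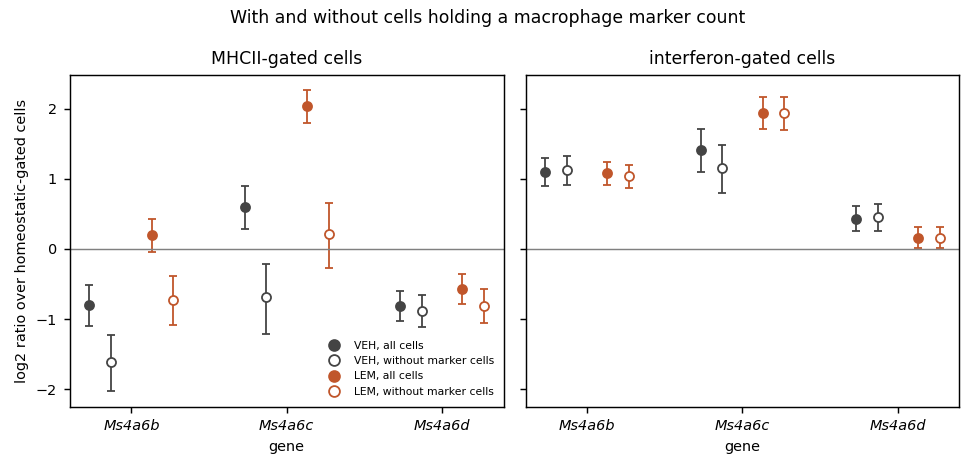
Log2 ratio over homeostatic-gated cells (y axis) of the Ms4a6 genes (x axis) in MHCII-gated and interferon-gated cells of VEH and LEM. Filled points are all cells, open points leave out cells with a count of a BAM marker or Ms4a7, and lines are 95% counting intervals. In the MHCII gate Ms4a6c moves from 2.04 to 0.21 in LEM and from 0.60 to -0.69 in VEH, and in the interferon gate from 1.94 to 1.94 and from 1.41 to 1.15.

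In DAM-gated cells the Ms4a6 genes were low. Ms4a6b was at 10.3 CPM in both libraries (14 and 26 counts), ratios of -2.34 and -2.05, and was lower in 4 of 4 pools, by -3.80 to -1.80. Ms4a6d was at 35.4 and 41.5 CPM against 97.4 and 90.1 CPM. Ms4a6c differed between the libraries, at 3.69 CPM in VEH (5 counts) and 12.3 CPM in LEM (31 counts), ratios of -2.35 and -0.09. The levels of Ms4a6b and Ms4a6d were the lowest of the 7 gates, though in LEM the interval of Ms4a6d overlapped that of mitotic-gated cells, while the library decided the place of Ms4a6c.

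To gauge free RNA, the members were read in cells with at least 3 of 6 choroid plexus markers (176 cells in both libraries, median 9086.5 counts), which should lack myeloid genes. These droplets held P2ry12, a microglial marker, at 2612 CPM in VEH and 2055 CPM in LEM, beside 2100 and 2213 CPM in DAM-gated cells, so they are a weak measure of background. Over both libraries, DAM-gated cells were above choroid-gated cells, with intervals that did not overlap, for Abi3 at 410 and 303 CPM, Picalm at 318 and 254 CPM and Ptk2b at 117 and 83.2 CPM. They were below for Ms4a6b, at 10.3 (7.36 to 14) CPM in DAM-gated and 21.4 (15 to 29.6) CPM in choroid-gated cells. The intervals of the other 6 members overlapped, among them Bin1 at 460 and 430 CPM, Rin3 at 55.3 and 58.9 CPM, Ms4a6d at 39.4 and 47.0 CPM and Ms4a6c at 9.27 and 8.92 CPM. Abi3 in mitotic-gated cells, at 320 CPM, also overlapped its choroid-gated level. Taken by library, the DAM-gated intervals of Abi3, Picalm and Ptk2b lay above the choroid-gated ones in LEM only. That of Ms4a6b lay below in VEH only, where 45 cells were choroid-gated. In choroid-gated cells, Ms4a6b was at 44.6 CPM in VEH and 13 CPM in LEM, and in VEH its ratio to homeostatic-gated cells was -0.23 (-0.94 to 0.40). In thinned cells, Sorl1 was detected in 0.568% of choroid-gated, 1.94% of homeostatic-gated and 2.38% of interferon-gated cells.

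**Figure D5:**
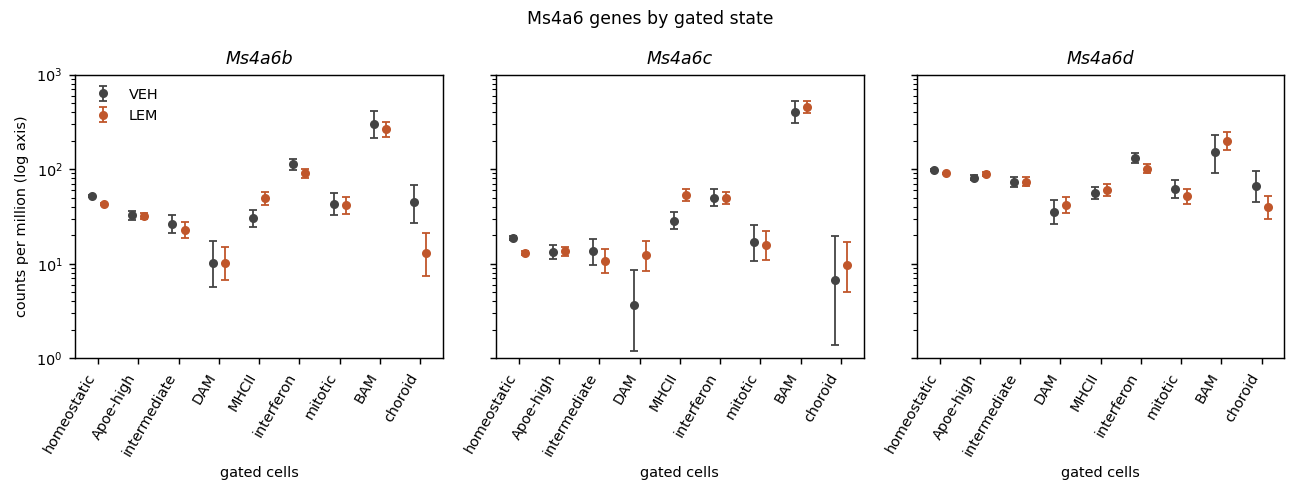
Level of Ms4a6b, Ms4a6c and Ms4a6d in CPM (y axis, log scale) by gate (x axis) in VEH and LEM, with 95% counting intervals. Each gene is highest in the BAM gate, interferon-gated cells hold 112 and 90.0 CPM of Ms4a6b, and DAM-gated cells 10.3 CPM.

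Within gates, the libraries were also set side by side. Among homeostatic-gated cells, Ms4a6c was at 13 CPM in LEM and 18.8 CPM in VEH, a log2 ratio of -0.53 (-0.63 to -0.43), the 1 member past the fold, beside 1.34% of 11802 genes lower and 1.69% higher. Bin1 was at -0.02, Picalm at -0.08, Abi3 at -0.03 and Ptk2b at 0.11 in the same cells. By sex, Ms4a6c in homeostatic-gated female cells was at 19.5 CPM in VEH and 15.4 CPM in LEM. In male cells of that gate it was at 18.7 and 10.5 CPM, a wider gap. In interferon-gated cells Ms4a6c was at -0.01 (-0.37 to 0.36). In MHCII-gated cells it was at 0.90 (0.53 to 1.28), and the share of cells with a BAM-marker or Ms4a7 count was higher in LEM. Ms4a6b was at 0.70 (0.33 to 1.08) in the MHCII gate. Without cells with a BAM-marker or Ms4a7 count, Ms4a6c was at 11.6 CPM in VEH and 15 CPM in LEM. Its ratio of 0.37 (-0.31 to 1.06) was no longer past the fold. Ms4a6b was then at 17.1 and 25.6 CPM, a ratio of 0.59 (0.05 to 1.13). On few counts, Sorl1 was at -0.89 (-1.54 to -0.24) in interferon-gated and -1.45 (-2.59 to -0.35) in DAM-gated cells, and Ms4a6c at 1.73 (0.36 to 3.45) in DAM-gated cells. The share of all genes past the fold between libraries is not given here for the MHCII, interferon and DAM gates.

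Genes with the most similar profile were sought over 14 points, the 7 gates in each library, among 7400 genes. The members and the gate markers were left out of this search. Points share libraries and depth, so the correlations are a description. For Bin1 the nearest were Kctd12 (Pearson r = 0.99), Pla2g15 (0.985) and Slc40a1 (0.983), and for Picalm they were Gm2629 (0.984), Klf3 (0.977) and Rhob (0.976). Abi3 was nearest to Pnrc1 (0.987), Zfp36 (0.984) and Junb (0.982), and Cd2ap to Jun (0.956), Eng (0.952) and Rtn4rl1 (0.951). Zfp36, Junb and Jun are immediate early genes. Rin3 was nearest to Sirt7 (0.938), Sbf2 (0.938) and Pald1 (0.934), and Ms4a6d to Bco2 (0.964), Letm2 (0.958) and Etv1 (0.955). Ms4a6b was nearest to Gbp7 (0.93), Tut7 (0.887) and Epsti1 (0.869), and Ms4a6c to Apobec1 (0.862), H2-T22 (0.811) and Epsti1 (0.788). Gbp7 and Epsti1 are interferon-induced genes. Over the same points, Ms4a6b and Ms4a6c had r = 0.808 with each other, above that of Ms4a6c with Epsti1. Sorl1 and Ptk2b had looser matches, Slamf8 (0.789), Cmklr1 (0.73) and Nfkbiz (0.728) for Sorl1, and Hspa4 (0.813), Surf4 (0.801) and Chchd4 (0.797) for Ptk2b.

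Partner genes were read from lists of the members' pathways. With LEM, of 37 tested genes of clathrin endocytosis, early endosomes and retromer none passed the fold, and of 22 actin and WAVE complex genes none did. Limited to genes seen in 10% or more of the cells in VEH or LEM, the largest differences in these lists were Rabgef1, a Rab5 exchange factor, at -0.28 and Abi2, a WAVE subunit, at -0.19. Of 22 genes of integrin and Pyk2 signalling, Nedd9 was higher and Ptk2, which encodes the focal adhesion kinase, was lower. Among 36 other AD risk genes, Apoe, Clu, Hbegf and Scimp were higher and Ctnna3 was lower, beside 1.62% and 1.24% of all genes tested. Apoe, the lipid carrier, was at 1425 CPM in VEH and 2151 CPM in LEM, a log2 ratio of 0.59, and Hbegf, a growth factor of the EGF family, at 64.9 and 100 CPM, a ratio of 0.62.

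In DAM-gated cells, 9.47% of all tested genes were higher and 22.4% lower. Of 36 other AD risk genes tested there, 8 were higher, among them Apoe (3.72 in VEH and 2.87 in LEM), Trem2 and Grn. A further 12 were lower, among them Cd33, Inpp5d and Plcg2. Cells rich in Apoe counts were gated out of the homeostatic-gated cells but not out of the DAM-gated cells. The Apoe ratio was therefore set in part by the gates. Of 37 endocytosis genes 4 were lower and 1 was higher, with Epn2, an epsin of clathrin coats, at -2.10 and -1.42 and Itsn1 at 0.68 and 0.97. Of 23 integrin and Pyk2 genes 10 were lower, including Src, Syk and Itgam, and 3 were higher, including the kinase Fgr at 2.96 and 2.30. Of 22 actin genes 2 were lower, Was and Wasf2, and 2 were higher, Arpc1b and Cfl1. In interferon-gated cells 4 of 36 risk genes were higher, among them Scimp at 2.47 and 2.01. In the same cells 1 was lower, beside 5.75% and 3.62% of all genes tested. Apoe was also among the 4 higher genes, and its ratio was again set in part by the gates.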

How the data were processed

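Single-cell RNA of sorted microglia was counted in 1 VEH and 1 LEM library. The authors aligned reads with Cell Ranger 8.0.0 to mm10, per the labels, named SoupX for free RNA in their methods, and deposited 1 table of whole-number counts (UMIs) per gene and cell, without normalization. Whether the SoupX correction is included cannot be told from the values. In the table the fewest genes in a cell were 501, the most counts 19999 and the highest mitochondrial share 2.5%, and 0 columns were left unmatched to a library.

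Counts were summed per library, sex and gate and given as CPM with exact Poisson intervals. Log2 ratios have intervals from exact binomial ones, and shares of cells have Clopper-Pearson intervals, all at 95% and for counting error only. Of the genes tested, each was detected in at least 1% of the cells of either side, and a group at 0 counts was set to 3. Gates were applied in the order choroid, BAM, mitotic, interferon, MHCII, DAM, Apoe-high, intermediate and homeostatic to cells of at least 2000 counts. Fixed DAM markers numbered 6 in the table used, and 1 more is not analysed here. Doublets were kept, and an alternative left out cells with Xist and Y-linked counts.

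The design called for no p-values, since each treatment has 1 library. Genes named are the 10 members, gate markers and the 2 list genes with the largest ratios among those in at least 10% of cells. Also named are the 3 genes most similar to each member by Pearson r of log2(CPM + 1), sought outside members and gate markers. Further list genes and motifs were chosen after their values were seen. Members and lists were chosen with earlier results of these data known. Positions are from GENCODE M21 and promoter windows from RefSeq (GRCm38.p6). The work was done in Python 3.11.15 with scipy 1.17.1 and pandas 2.3.3, arrays in numpy 2.4.6 and plots in matplotlib 3.10.9, and the ratio step was tested on simulated data. Alternatives were other scalings, thinned cells, cells without doublet signs, each sex, detection minimums, folds of 0.25 and 1, and gates with 1 marker more or fewer. Added after seeing the data were the median of all tested genes as a scale and gates without BAM-marker cells, without MHC class II counts and with cells of at least 8000 counts. The BAM-marker cells left out include those with a count of Ms4a7.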

Additional observations from a re-analysis of the deposited data

How the results depend on the processing

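The number of members lower past the fold with LEM was 0, and became 2 in male cells and 3 at a fold of 0.25, where 2.12% and 4.37% of the 11910 genes were lower, beside 1.24%. The median of the members, -0.09, was -0.13 in female cells. Of the pairs of a member and a state, 14 were lower, which became 22 with gates on thinned cells, 30 at a fold of 0.25 and 2 at a fold of 1, 10 when scaled by the median of ratios, and 6 relative to the median of all tested genes, an alternative added after seeing the data. The share of such pairs over all tested genes moved too, from 10.3% to 14.1%, 24.2%, 2.09%, 6.91% and 6.05% in the same order. On thinned cells the DAM gate held 26 VEH and 32 LEM cells, below the minimum of 50 per library set for a state. For list genes with LEM, 6 were higher and 2 lower, which became 2 and 0 among genes in at least 10% of cells, where 0.518% of all genes were higher and 0.518% lower. For Ms4a6c in MHCII-gated cells, the mean over both libraries reversed to -0.24 without cells with a BAM-marker or Ms4a7 count. The sign changed in VEH, at -0.69, and not in LEM, at 0.21 (-0.27 to 0.66). This alternative was added after seeing the data. Sorl1 stayed below 0 with LEM in 9 of 9 alternatives, between -0.90 and -0.14.

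No paired analysis was possible because each treatment has 1 library and the labels carry no replicate numbers. For the same reason no replicate was left out. The mice within a library are not told apart, so treatment cannot be told apart from the animals, the sort or the library. Depth limits the low members in small gates: in DAM-gated cells Sorl1 and Ms4a6c rest on 5 to 31 counts.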
